A study of Mus musculus with 7 samples.

Results

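Transcripts of 38 genes of mitosis and the kinetochore were examined in mouse hearts, of 37325 gene names on the array. The members were listed by symbol, and a probe was taken as a member's where the scanner files gave it that gene name. The brightest kept probe, by its mean over the 7 arrays, stood for each gene, and 37 of the 38 genes could be tested among 22976 genes tested in all. The exception was Kif2c, which was well above background on too few arrays.

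The knockout group held 4 arrays, Mutant_175, Mutant_182, Mutant_187 and Mutant_188, and the wild type group held 3, Wild Type_181, Wild Type_183 and Wild Type_189. The series design counts more samples than these, and 7 were analysed here. Samples came from adult female mice. Knockout samples are labelled as knockout of both Brg1 and Brm and as heart Tg + Tamoxifen, and the series design describes deletion of Brg1 (gene Smarca4) by tamoxifen in Brm (gene Smarca2) null mice carrying MHC Cre-ERT, an inducible Cre recombinase under a myosin heavy chain promoter, so deletion is aimed at adult cardiomyocytes. Wild type samples are labelled heart NTg + Tamoxifen, so tamoxifen was shared by both groups, and whether they lacked Brm was not stated. Brg1 and Brm are the alternative ATPase motors of SWI/SNF chromatin remodelling complexes. Cardiomyocytes are the labelled cell type, while the protocol describes RNA purified from tissue with no step that isolates cells. Whether each sample number is a separate animal is not stated, so p-values cover the spread between samples, which may be technical, and precision is limited by having 4 and 3 arrays.

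Cells that enter mitosis condense their chromosomes, and CDK1 bound to B-type cyclins drives that entry. Kinetochores, protein assemblies built on centromeric chromatin, attach the chromosomes to spindle microtubules, and the spindle checkpoint holds back the anaphase-promoting complex (APC/C) until all are attached. Most adult cardiomyocytes have left the cell cycle and hold little of these transcripts, whereas fibroblasts, macrophages and endothelial cells of the heart can divide. In RNA from whole tissue, a change in the number of cells of a type and a change in RNA per cell cannot be told apart.

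Signals below are given as relative signal, in percent of the 75th percentile of that array. Levels are compared between arrays for 1 probe and never between probes. Smarca4 had a relative signal of 587% in Mutant_175, 1026% in Mutant_182, 1495% in Mutant_187 and 825% in Mutant_188, against 3471%, 3277% and 3416% in the wild type arrays. Its log2 fold change, knockout minus wild type, was -1.87 (SE 0.29, adjusted p = 0.00209, limma). Smarca2 gave 0.08 (SE 0.11, adjusted p = 0.586), and which part of either gene was removed is not stated, so neither probe tells whether functional transcript remained. Wild type arrays carry one leading position number on the slide and knockout arrays the other, so position and genotype cannot be told apart.

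Mitotic genes were higher in knockout hearts as a group, with 1 member lower. Of the 37 members tested, 23 rose, 1 fell and 13 were not called at an adjusted p under 0.05, where 16.3% of all genes tested were called higher and 25.8% lower. The median log2 fold change of the members was 2.08, in a range of -3.46 to 3.42, against a median of -0.12 over all genes tested. It was 2.02 with the 5 members that were well above background in knockout arrays alone set at their lower bounds. All 23 rises were at least 2-fold, which 8.47% of all genes reached with a call, and 15 were at least 4-fold, which 2.67% of all genes reached. The 13 members that were not called also had positive log2 fold changes, of 1.15 to 2.59, with adjusted p-values of 0.0503 to 0.225. In every one of these 13, Mutant_182, Mutant_187 and Mutant_188 lay above all wild type arrays and Mutant_175 did not. Of the 37 members, 32 were well above background on all 7 arrays, and among these 21 rose and 1 fell, where 16.4% of all such genes rose and 25.7% fell. The other 5, Bub1, Ttk, Kif4, Kif11 and Cdc25c, passed the filter through knockout arrays alone.

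**Figure D1:**
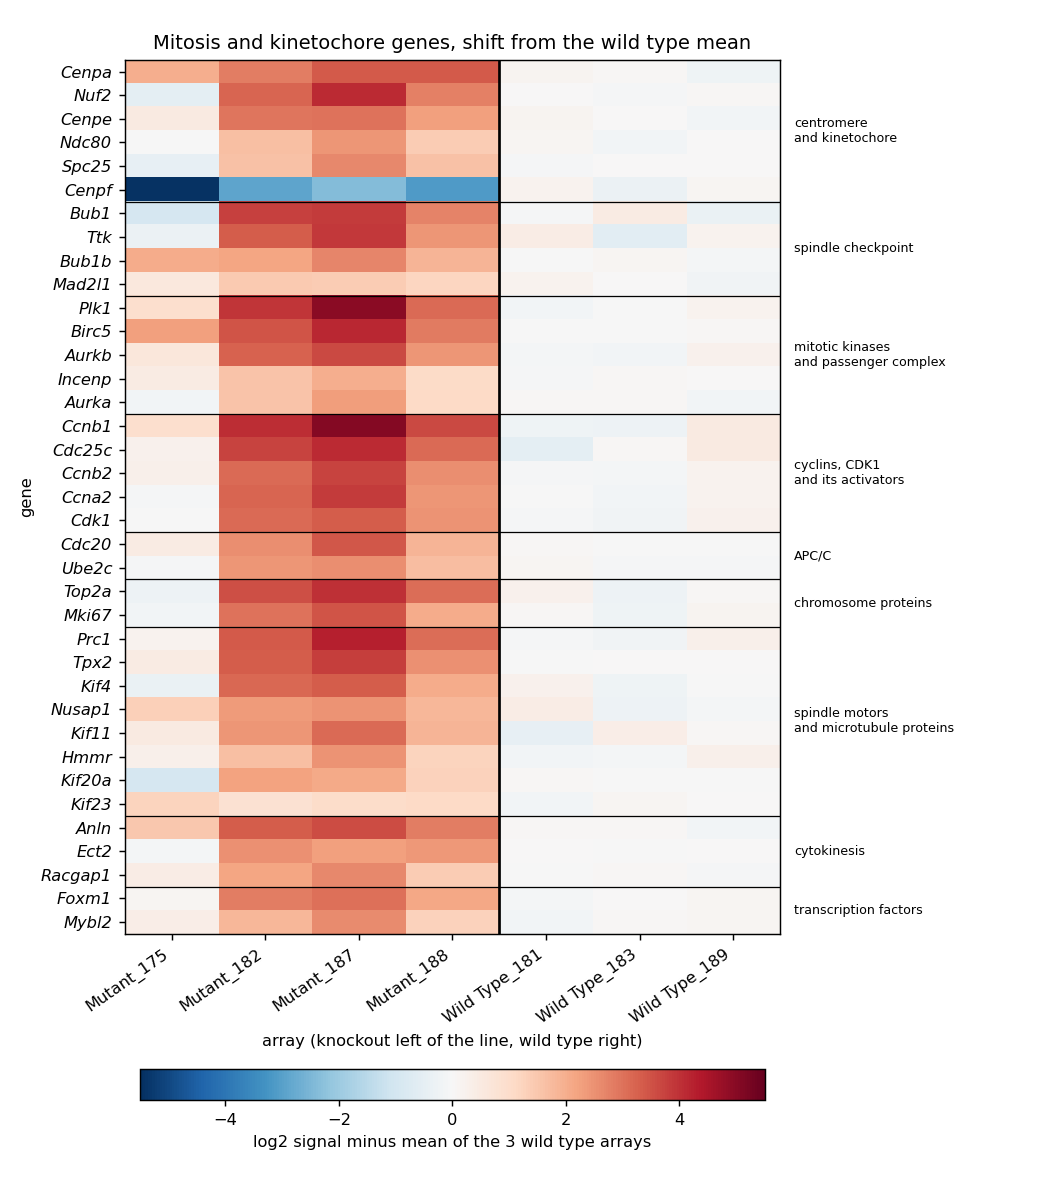
Log2 signal minus the mean of the 3 wild type arrays (colour) for the 37 members tested (rows, by role) on each array (columns, knockout left and wild type right). Mutant_182, Mutant_187 and Mutant_188 lie above every wild type array in 36 of 37 members, Mutant_175 in 19, and Cenpf is the member below wild type on all 4 knockout arrays.

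Mutant_175 stood apart from the other knockout arrays. Its median shift over the 37 members, log2 signal minus the wild type mean, was 0.27, against 2.83 in Mutant_182, 3.34 in Mutant_187 and 2.12 in Mutant_188. In Mutant_175, 19 members lay above the highest wild type array and 9 below the lowest, while the other 3 knockout arrays each had 36 above and 1 below. Over all genes tested, the share above the highest wild type array was 35.3% in Mutant_175 and 33.2% to 34.9% across the remaining knockouts, so Mutant_175 was not nearer to wild type by this count over all genes. It was the lowest knockout array in 35 of 37 members, against 30.8% of all genes and 43.3% of all genes called higher. Mutant_187 was the highest in 33 members, against 26.8% of all genes and 40.7% of those called higher. All knockout arrays lay above all wild type arrays in 19 of 37 members, against 19.6% of all genes, and below them in 1 of 37 members, against 31.6% of all genes. Without Mutant_175, 36 of 37 members rose and 1 fell, with a median of 2.73, where 19.7% of all genes rose and 29.5% fell. Without Mutant_175 and Mutant_187 the counts were again 36 and 1, where 19.3% rose and 28.1% fell. Leaving out any other single array gave 7 to 16 rises, and the lowest counts, of 7 and 8, came without a wild type array. Of all genes, 11.5% to 11.8% rose without a wild type array. Leaving out Mutant_182, Mutant_187 or Mutant_188 alone, 13.5% to 15.8% of all genes rose. With spike-in scaling 35 members rose and 1 fell (37.1% and 7.45% of all genes), and with no filter on dim probes 14 rose and 1 fell (8.85% and 14.3% of all genes).

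The promoters of several members are printed because genes of this kind are known to share promoter elements. In mammals, CCAAT boxes, bound by NF-Y, and the cell cycle genes homology region, bound by MuvB complexes, recur in promoters active late in the cell cycle. RefSeq promoter windows (assembly GRCm38.p6, from 250 bases before to 50 after a gene's start) were at hand for 31 of the 38 members. The letters CCAAT, on either strand, occurred in 23 of these 31, or 74.2%, against 41.1% of 27025 genes with a window. TTTGAA or TTCGAA, the core letters of the homology region, occurred on either strand in 24, or 77.4%, against 21.7% of all. Both occurred in 21, or 67.7%, against 9.65%. Motifs were counted separately and could share letters, and a match is a description of letters and not of binding. The 140 bases before the start follow, 5′ to 3′, with matches in capitals. By their brightest probes, the first 3 genes were near wild type in Mutant_175, and the other 3 were raised there. A second Birc5 probe read 6.20% there, inside the wild type range of 3.95% to 6.44%.
Ccnb2, chr9:70421555-70421694 (- strand): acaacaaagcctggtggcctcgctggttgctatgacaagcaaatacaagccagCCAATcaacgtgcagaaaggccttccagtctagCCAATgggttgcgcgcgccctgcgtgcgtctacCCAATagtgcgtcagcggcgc
Cdk1, chr10:69352913-69353052 (- strand): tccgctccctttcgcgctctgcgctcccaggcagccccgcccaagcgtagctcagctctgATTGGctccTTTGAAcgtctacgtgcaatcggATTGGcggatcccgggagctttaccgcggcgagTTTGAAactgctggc
Top2a, chr11:99024190-99024329 (- strand): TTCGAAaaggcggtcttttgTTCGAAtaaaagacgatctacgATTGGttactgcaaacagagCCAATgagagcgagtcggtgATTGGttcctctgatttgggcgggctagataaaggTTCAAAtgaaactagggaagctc
Cenpa, chr5:30666746-30666885 (+ strand): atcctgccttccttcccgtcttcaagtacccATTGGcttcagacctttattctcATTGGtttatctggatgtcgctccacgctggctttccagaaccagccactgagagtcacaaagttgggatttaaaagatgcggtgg
Birc5, chr11:117849097-117849236 (+ strand): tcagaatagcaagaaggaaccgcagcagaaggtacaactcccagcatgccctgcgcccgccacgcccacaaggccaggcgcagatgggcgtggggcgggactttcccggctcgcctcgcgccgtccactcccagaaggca
Bub1b, chr2:118598071-118598210 (+ strand): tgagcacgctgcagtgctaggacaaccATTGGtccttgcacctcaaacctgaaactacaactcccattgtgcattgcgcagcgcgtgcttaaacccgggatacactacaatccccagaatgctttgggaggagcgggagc
Ccnb2 held 3 CCAAT matches in its stretch and Cdk1 2, with 2 matches of the other motif. Top2a held 3 of each. Cenpa held 2 CCAAT matches, Bub1b held 1, and Birc5 held none of either, which says only that these letters are not in this stretch. In the full windows, matches of TTTGAA or TTCGAA numbered 2 in Ccnb2, 2 in Bub1b, 1 in Cenpa and 0 in Birc5. Whether the motifs differ with the level in Mutant_175 was not tested.

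Among the centromere and kinetochore members, Cenpa and Cenpe rose, Cenpf fell and 3 subunits of the NDC80 complex were not called. Cenpa, the histone H3 variant that marks centromeres, had a relative signal of 1482%, 2621%, 3836% and 3826% in Mutant_175, Mutant_182, Mutant_187 and Mutant_188, against 412%, 387% and 315% in the wild type arrays. All knockout arrays lay above all wild type arrays, giving 2.90 on the log2 scale (SE 0.34, adjusted p = 0.000584, limma). Cenpe, a kinetochore motor that brings chromosomes to the spindle equator, had 25.8%, 142%, 145% and 86.7% in the knockout arrays, against 20.4%, 18.3% and 16.2% in wild type (log2 fold change 2.18, SE 0.58, adjusted p = 0.0196). Its groups did not overlap, although Mutant_175 lay just above wild type. The NDC80 complex is the part of the kinetochore that grips microtubules. Ndc80 had a log2 fold change of 1.36 (adjusted p = 0.0651), Nuf2 2.38 (adjusted p = 0.0895) and Spc25 1.36 (adjusted p = 0.122). Nuf2 was at 4.22% in Mutant_175 and at 42.5% to 106% across the remaining knockouts, against 5.89% to 6.40% in wild type. Mutant_175 was thus below the wild type arrays and the other 3 far above them.

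Cenpf, a large protein of the outer kinetochore and nuclear matrix, was the single member that fell, and its other probe did not fall. Its brightest probe (chromosome 1, 191465934 to 191465993 of build mm9, - strand) had 15.2%, 86.8%, 125% and 75.9% in Mutant_175, Mutant_182, Mutant_187 and Mutant_188, against 758%, 532% and 700% in wild type. All knockout arrays lay below all wild type arrays, giving -3.46 on the log2 scale (SE 0.67, adjusted p = 0.00529, limma). The other Cenpf probe (191507765 to 191507824) had 2.38%, 16.7%, 24.6% and 13.9% in the knockout arrays and was well above background on no wild type array, where it read 1.84%, 1.47% and 2.36%. It was at least 3.98-fold higher (adjusted p over all kept probes = 0.028), with Mutant_175 at the level of wild type. Both probes carry the same RefSeq accession in the files. With the mean over the probes, Cenpf gave -0.46 (adjusted p = 0.628). No gene models of build mm9 were used, so the exons that these probes match are not given.

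Of the 4 spindle checkpoint members, Bub1b and Mad2l1 rose, and Bub1 and Ttk were not called. Bub1b (BubR1, an inhibitor of the APC/C) had 33.5%, 35.8%, 51.4% and 29.2% in Mutant_175, Mutant_182, Mutant_187 and Mutant_188, against 8.03%, 8.71% and 7.41% in wild type. Mutant_175 lay among the other knockouts here, and the log2 fold change was 2.19 (SE 0.20, adjusted p = 0.000204, limma), the smallest adjusted p of all members. Mad2l1, which encodes the checkpoint protein MAD2, had 126%, 223%, 219% and 190% in the knockout arrays, against 93.8%, 84.6% and 72.0% in wild type (log2 fold change 1.15, SE 0.22, adjusted p = 0.00528), with no overlap. Bub1 and Ttk, the checkpoint kinases, were well above background on no wild type array. Bub1 was at least 3.05-fold higher (adjusted p = 0.123) and Ttk at least 3.54-fold higher (adjusted p = 0.0802), neither of them called. Bub1 read 0.86%, 21.7%, 23.4% and 10.6% in the knockout arrays and 1.24% to 2.24% in wild type, and Ttk 1.53%, 19.1%, 28.4% and 10.3% against 1.27% to 2.53%. By these probes Mutant_175 was at or below the level of wild type in both genes. A dimmer Ttk probe, named after its values were seen, was also well above background on no wild type array. It was at least 1.25-fold higher and was called (adjusted p over all kept probes = 0.0244).

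Of the mitotic kinases and the chromosomal passenger complex, 4 of 5 rose. Plk1, the polo-like kinase that acts from mitotic entry to cytokinesis, had 27.0%, 217%, 447% and 124% in Mutant_175, Mutant_182, Mutant_187 and Mutant_188, against 13.1%, 14.1% and 16.3% in wild type (log2 fold change 3.22, SE 0.84, adjusted p = 0.0183). The passenger complex joins the kinase Aurora B to INCENP, survivin and borealin and corrects faulty attachments. Birc5, the survivin gene, had 247%, 570%, 921% and 378% in the knockout arrays, against 51.3%, 50.8% and 54.9% in wild type, giving 3.17 on the log2 scale (SE 0.40, adjusted p = 0.000876). Aurkb (Aurora B) had 5.74%, 35.9%, 46.0% and 20.1%, against 3.53%, 3.40% and 4.38% in wild type (log2 fold change 2.48, SE 0.66, adjusted p = 0.0198). Incenp, the scaffold of the complex, had 200.3%, 433%, 590% and 301%, against 140%, 153% and 149% in wild type (log2 fold change 1.26, SE 0.34, adjusted p = 0.0209). No knockout array overlapped wild type in these 4 genes. Aurka, the Aurora kinase of centrosomes and spindle poles, gave 1.21 (adjusted p = 0.0932), with 40.5% in Mutant_175 and 96.5% to 221% across the remaining knockouts, against 40.7% to 47.4% in wild type.

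Among CDK1, its cyclins and its activator, 4 of 5 rose. Ccnb1 (cyclin B1) had the largest fitted rise of the members. It read 11.5%, 100.2%, 197% and 74.5% in Mutant_175, Mutant_182, Mutant_187 and Mutant_188, against 5.15%, 4.94% and 8.52% in wild type (log2 fold change 3.42, SE 0.87, adjusted p = 0.0169). Ccnb2 (cyclin B2) read 39.8%, 279%, 428% and 191%, against 31.4%, 29.7% and 36.8% in wild type (log2 fold change 2.42, SE 0.73, adjusted p = 0.032). In both cyclins the groups did not overlap. Cdk1 itself, whose promoter is printed above, read 4.34%, 37.6%, 44.0% and 24.2%, against 4.22%, 3.79% and 5.18% in wild type (log2 fold change 2.23, SE 0.75, adjusted p = 0.0473), with Mutant_175 inside the wild type range. Cdc25c, the phosphatase that activates CDK1, was not well above background in wild type and was at least 4.63-fold higher (adjusted p = 0.0361), with 2.20%, 24.3%, 31.96% and 15.8% in the knockout arrays, against 1.26%, 1.91% and 2.62% in wild type, and with Mutant_175 inside the wild type range. Ccna2 (cyclin A2), of S and G2 phase, gave 2.35 (SE 0.84, adjusted p = 0.0564), with 17.0% in Mutant_175 and 97.5% to 257% across the remaining knockouts, against 16.0% to 20.6% in wild type.

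Cdc20, the coactivator through which the APC/C starts anaphase, rose, and Ube2c, the ubiquitin-conjugating enzyme of that complex, was not called. Cdc20 had 64.9%, 285%, 509% and 176% in Mutant_175, Mutant_182, Mutant_187 and Mutant_188, against 49.7%, 47.6% and 46.9% in wild type (log2 fold change 2.07, SE 0.62, adjusted p = 0.0302), without overlap. Ube2c had 16.2% in Mutant_175 and 54.7% to 97.9% across the remaining knockouts, against 16.1% to 18.4% in wild type (log2 fold change 1.65, SE 0.59, adjusted p = 0.0567). The chromosome proteins Top2a, the topoisomerase that untangles sister chromatids, and Mki67, the Ki-67 antigen that coats mitotic chromosomes, were not called either. Top2a had 12.3%, 177%, 245% and 126% in the knockout arrays, against 17.7%, 12.4% and 15.5% in wild type (log2 fold change 2.59, SE 0.96, adjusted p = 0.0633). Mki67 had 53.2%, 460%, 638% and 242%, against 61.9%, 50.1% and 64.7% in wild type (log2 fold change 2.08, SE 0.78, adjusted p = 0.0655). By these brightest probes, Mutant_175 was at or below the wild type level in both, while the other 3 knockouts were far above it. A dimmer Top2a probe, named after its values were seen, was called higher, at 2.79 (adjusted p over all kept probes = 0.0295). It had 7.04% in Mutant_175, just above the wild type arrays at 5.82%, 4.83% and 6.19%. Another Top2a probe, well above background on no wild type array, was at least 1.24-fold higher (0.0636).

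**Figure D2:**
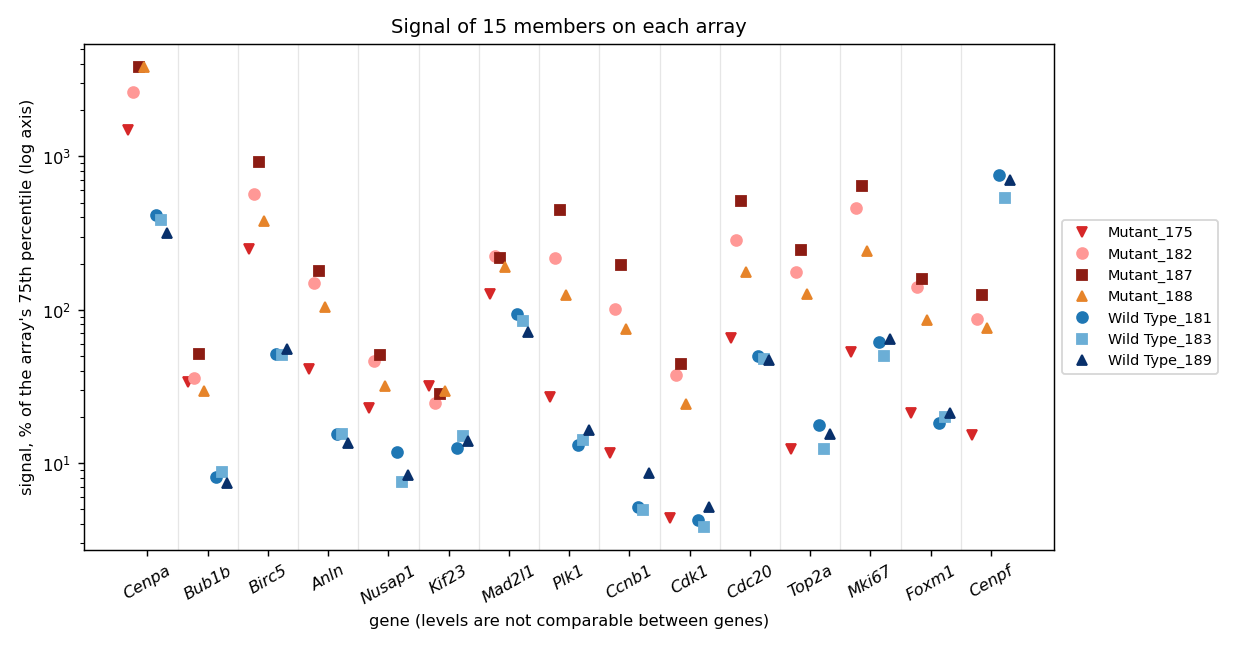
Relative signal in percent of the array's 75th percentile (log axis) for 15 members on the 4 knockout arrays (red to orange, left in each column) and the 3 wild type arrays (blue, right). Cenpa, Bub1b, Birc5, Anln, Nusap1, Kif23 and Mad2l1 have all knockout arrays above wild type with Mutant_175 clearly raised in most, whereas Cdk1, Top2a, Mki67 and Foxm1 have Mutant_175 at the wild type level.

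Spindle motors and microtubule proteins rose in 6 of the 8 members tested. Nusap1, which bundles spindle microtubules around chromosomes, had 22.7%, 46.1%, 50.5% and 31.7% in Mutant_175, Mutant_182, Mutant_187 and Mutant_188, against 11.8%, 7.45% and 8.36% in wild type (log2 fold change 1.99, SE 0.31, adjusted p = 0.00201). Tpx2, an activator of Aurora A that nucleates microtubules, had 8.65%, 64.9%, 89.9% and 36.9%, against 6.24%, 6.46% and 6.48% in wild type (log2 fold change 2.53, SE 0.73, adjusted p = 0.0267). In both genes every knockout array exceeded wild type. Kif11, the kinesin that pushes spindle poles apart, was not well above background in wild type and was at least 2.50-fold higher (adjusted p = 0.0261). It read 2.45%, 9.37%, 14.8% and 6.24% in the knockout arrays, against 1.26%, 2.24% and 1.81% in wild type. Hmmr, a spindle-associated hyaluronan receptor, had 18.8%, 49.98%, 85.8% and 36.6%, against 14.2%, 14.4% and 18.9% in wild type (log2 fold change 1.40, SE 0.46, adjusted p = 0.0428), with Mutant_175 inside the wild type range. Its dimmer probes, well above background on no wild type array, were at least 2.47-fold (adjusted p over all kept probes = 0.0559) and at least 3.29-fold higher (0.0372). Of the kinesins that were not called, Kif4 (KIF4A, of the chromosome arms and the central spindle) was at least 3.73-fold higher (adjusted p = 0.0855) and Kif20a, of cytokinesis, gave 1.15 (adjusted p = 0.225). Kif20a had 12.9% in Mutant_175 and 58.0% to 113% across the remaining knockouts, against 23.7% to 25.8% in wild type. Kif2c, the depolymerase at kinetochores, was well above background on 2 knockout arrays and no wild type array, read 0.87%, 6.89%, 12.3% and 3.12% in the knockout arrays and 0.58% to 1.13% in wild type, and was not tested.

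Prc1 and Kif23, both of the central spindle, had probes that differed in their pattern. The brightest Prc1 probe had 18.2%, 163%, 306% and 133% in Mutant_175, Mutant_182, Mutant_187 and Mutant_188, against 15.3%, 13.6% and 18.9% in wild type (log2 fold change 2.73, SE 0.86, adjusted p = 0.0371), and a second probe of the same RefSeq transcript gave 2.93 (adjusted p over all kept probes = 0.0314). Of the probes of other transcript models, one gave 0.12 (0.79) and one, well above background on no wild type array, was at least 2.38-fold higher (0.0579). A probe for the Ensembl transcript ENSMUST00000173914 (chromosome 7, 87449197 to 87449256 of mm9, + strand) fell instead, with 5.95%, 4.44%, 3.72% and 7.27% in the knockout arrays, against 11.55%, 12.95% and 12.01% in wild type (log2 fold change -1.23, adjusted p over all kept probes = 0.00487). It was lower on all 4 knockout arrays, Mutant_175 included. The brightest Kif23 probe, of a cDNA clone, had 31.8%, 24.5%, 28.0% and 29.6% in the knockout arrays, against 12.5%, 14.9% and 13.9% in wild type (log2 fold change 1.05, SE 0.13, adjusted p = 0.000826). It was raised evenly, Mutant_175 highest. Its probes of the RefSeq transcript, named here after their values were seen, gave 1.47 (adjusted p over all kept probes = 0.225) and 1.77 (0.221), with 3.38% in Mutant_175 and 26.1% to 66.1% across the remaining knockouts, against 6.91% to 8.37% in wild type, for the brighter of them. Likewise a second Birc5 probe, named after its values were seen, gave 2.55 (0.0335) with 6.20% in Mutant_175 and 29.4% to 75.5% across the remaining knockouts, against 3.95% to 6.44% in wild type. The rise of Kif23 and of Birc5 in Mutant_175 thus rested on 1 probe each. Cenpa, Bub1b, Nusap1 and Anln, also raised there, had only 1 kept probe each. Ccnb1 had 3 dimmer probes, none well above background in wild type, which were at least 2.12-fold (0.0575), 1.90-fold (0.0204) and 2.31-fold higher (0.0298).

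**Figure D3:**
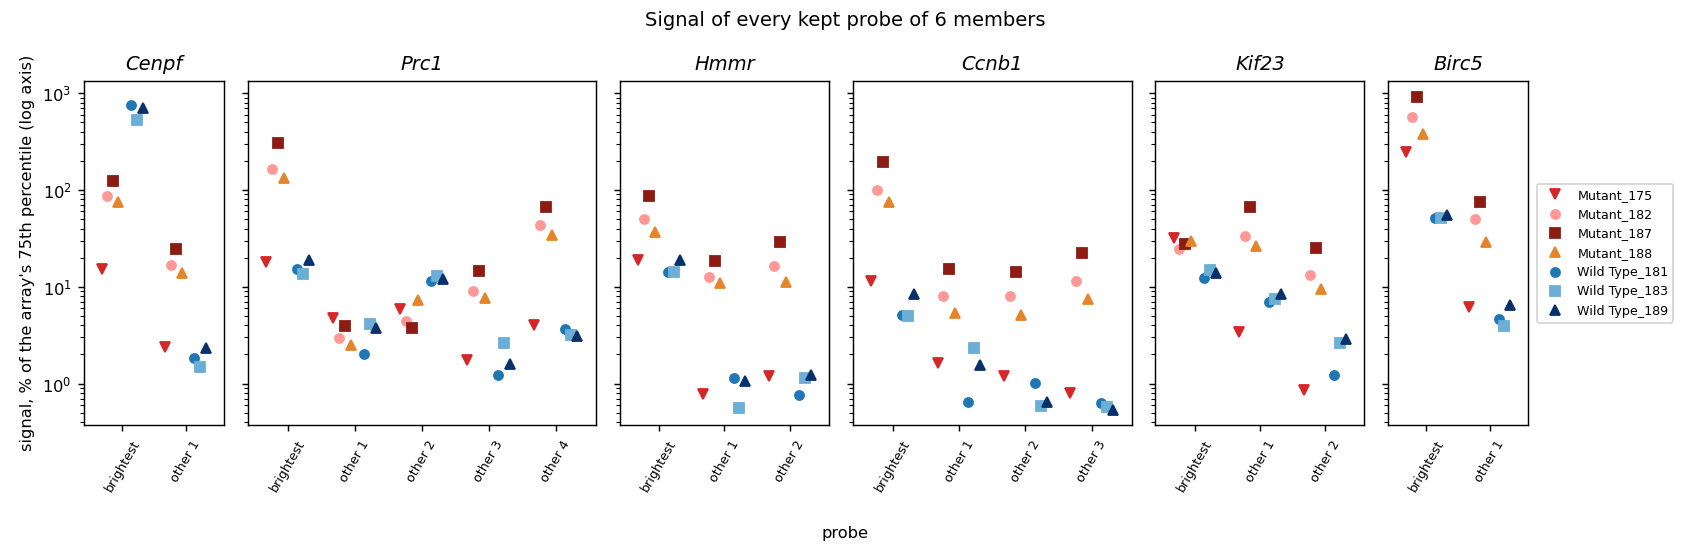
Relative signal in percent of the array's 75th percentile (log axis) of every kept probe of 6 members, knockout arrays left and wild type arrays right in each column. The brightest Cenpf probe is lower in all knockout arrays (15.2% to 125%, against 532% to 758% in wild type) while the other Cenpf probe, not well above background in wild type, is not, and the Prc1 probe marked other 2 is the lower one.

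Of the cytokinesis members, Anln and Racgap1 rose. Anln (anillin, the scaffold of the contractile ring) had 40.8%, 150.1%, 180.0% and 105% in Mutant_175, Mutant_182, Mutant_187 and Mutant_188, against 15.5%, 15.5% and 13.4% in wild type (log2 fold change 2.81, SE 0.47, adjusted p = 0.00298). Racgap1, which with Kif23 forms the centralspindlin complex, had 27.2%, 93.4%, 127% and 55.2%, against 20.5%, 22.0% and 19.8% in wild type (log2 fold change 1.65, SE 0.48, adjusted p = 0.0283). No knockout array overlapped wild type in either gene. Ect2, the exchange factor that activates RhoA at the division plane, gave 1.76 (SE 0.61, adjusted p = 0.0503), with 5.80% in Mutant_175 and 29.0% to 34.9% across the remaining knockouts, against 6.0% to 6.29% in wild type. The transcription factors of this gene programme, Mybl2 (B-Myb, a partner of MuvB) and Foxm1, both rose. Mybl2 had 24.4%, 67.3%, 117% and 45.8%, against 17.2%, 20.0% and 20.3% in wild type (log2 fold change 1.51, SE 0.47, adjusted p = 0.0357). Foxm1 had 21.0%, 140%, 158% and 85.2%, against 18.1%, 19.8% and 21.0% in wild type (log2 fold change 2.02, SE 0.65, adjusted p = 0.041). For Foxm1, Mutant_175 lay at the top of the wild type range.

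**Figure D4:**
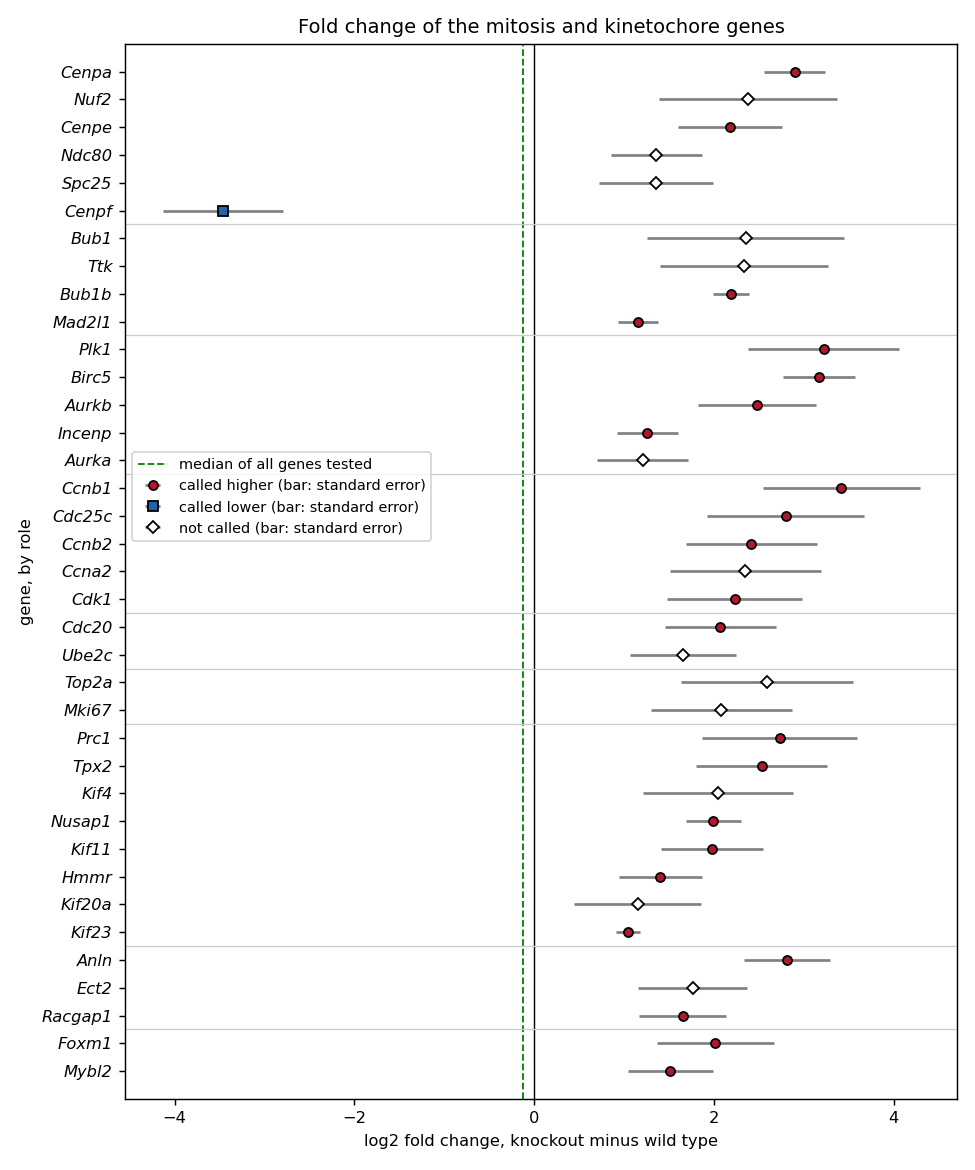
Log2 fold change, knockout minus wild type, of the 37 members (rows, by role) with standard error bars. Filled points were called at an adjusted p under 0.05, open ones were not, and the dashed line is the median of all genes tested (-0.12); 36 members lie right of 0 and Cenpf lies left of it. Bub1, Ttk, Kif4, Kif11 and Cdc25c are drawn at fitted values against background, for which the text gives lower bounds.

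In the knockout arrays the members followed 1 order. In 31 of 37 members the signal ranked Mutant_187, Mutant_182, Mutant_188 and Mutant_175 from high to low, against 8.97% of all genes tested and 19.0% of all genes called higher. The remaining Smarca4 signal had the same order. Cenpf, although it fell, had it too. The 6 members with a shift of at least 1 in Mutant_175 were Birc5 (2.24), Bub1b (2.06), Cenpa (2.01), Anln (1.47), Nusap1 (1.33) and Kif23 (1.21). Ccnb1 and Plk1 followed at 0.94 and 0.90, and 25 members lay within 0.6 of the wild type mean. Cenpf was at -5.43 and Kif20a at -0.92 in Mutant_175. Which difference in the animal or sample sets Mutant_175 apart was not tested.

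Genes that work beside the members moved in both directions, and their counts depended on the scaling and on single arrays. With spike-in scaling almost every call in these lists was a rise, as were 83.3% of the calls over all genes. Of all genes tested, 16.3% were called higher and 25.8% lower, and with spike-in scaling 37.1% and 7.45%. Without a wild type array 11.5% to 11.8% of all genes were called higher. Leaving out Mutant_182, Mutant_187 or Mutant_188 alone gave 13.5% to 15.8% higher, and leaving out Mutant_175 gave 19.7% higher and 29.5% lower. Of 36 other kinetochore and centromere genes, 17 rose and 3 fell, with a median of 0.73. These counts were 26 and 1 with spike-in scaling, 10 and 2 without Wild Type_183, 10 and 1 without Wild Type_189, and 23 and 4 without Mutant_175. Dsn1, of the MIS12 complex, rose by 2.39 (SE 0.15, adjusted p = 5.03e-05, limma), with 131%, 120%, 97.6% and 108% in Mutant_175, Mutant_182, Mutant_187 and Mutant_188, against 24.1%, 22.8% and 18.5% in wild type. Zwilch, of the checkpoint complex that brings dynein to kinetochores, rose by 2.28 and Cenpw, of the inner kinetochore, by 1.25. Sgo2a, a shugoshin that protects centromeric cohesin, fell by 2.44, with 6.88% to 9.22% in the knockout arrays, against 39.4% to 46.7% in wild type. Both Dsn1 and Sgo2a moved in Mutant_175 as far as across the remaining knockouts. Of 23 other spindle and cytokinesis genes tested from a list of 27, 10 rose and 5 fell, with a median of 1.28. These counts were 15 and 1 with spike-in scaling, 5 and 5 without Wild Type_183, 5 and 3 without Wild Type_189, and 16 and 4 without Mutant_175. Ckap2l, of the spindle, was at least 3.77-fold higher (adjusted p = 0.00914), while Cep55, of abscission, fell by 0.95, Cit (citron kinase) by 1.55 and the depolymerase Kif2a by 0.66. Of these 3, Cep55 (-0.39) and Kif2a (-0.10) were not called with spike-in scaling. The dimmer probe of Cit gave -0.72 (adjusted p over all kept probes = 0.365) and that of Kif2a -0.11 (0.474).

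Over all genes tested, 16.3% were called higher and 25.8% lower. Of the condensin and cohesin genes, 5 of 20 rose and 3 fell, with the median at 0.11. With spike-in scaling 10 rose and 0 fell, with the median at 0.67, without either Wild Type_183 or Wild Type_189 0 rose and 2 fell, without any one of Wild Type_181, Mutant_182, Mutant_187 and Mutant_188 2 rose, and without Mutant_175 8 rose and 4 fell. Ncapg2, of condensin II, rose by 1.13 and the condensin ATPase Smc4 by 0.48, while Ncapd3, of condensin II, fell by 0.81 and the cohesin subunit Rad21 by 0.63 (-0.24 and -0.06, neither called, with spike-in scaling). APC/C subunits and regulators had 1 of 17 called up and 2 called down, and a median of -0.09. With spike-in scaling 7 rose and 0 fell, with the median at 0.47, and without any one wild type array 0 rose and 2 fell. Over all genes, 37.1% rose with spike-in scaling, with the median at 0.44. The subunits Anapc13 and Cdc26 fell by 0.78 and 0.71 (-0.21 and -0.14, neither called, with spike-in scaling), Anapc15 rose by 0.44, and Cdc23 had -0.47 (adjusted p = 0.184). The dimmer probes of Anapc15 gave 0.39 (adjusted p over all kept probes = 0.0367), -0.27 (0.12) and -0.34 (0.15). Regulators of mitotic entry had 4 of 12 called up and 2 called down, and a median of 0.63, and 8 and 0 calls with spike-in scaling. Cks2, a CDK-binding subunit, rose by 1.93 (another probe, well above background on no wild type array, had an adjusted p over all kept probes of 0.358), the phosphatase Cdc25b by 1.23, and Gtse1 was at least 5.48-fold higher (adjusted p = 0.00308), while Ensa, an inhibitor of PP2A, fell by 0.52 but had 0.04 with spike-in scaling.

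In the main fit, 16.3% of all genes tested were called higher and 25.8% lower. Of 17 genes of the DREAM and MuvB complexes and the E2F family, 6 rose and none fell at an adjusted p under 0.05 (limma, 7 and 0 at an unadjusted p under 0.05), with a median of 0.36. With spike-in scaling 9 rose and 0 fell (37.1% and 7.45% of all genes), and without Mutant_175 8 rose and 3 fell (19.7% and 29.5% of all genes). E2f3 rose by 1.57, E2f2 by 2.65, Lin37 of MuvB by 0.60 and Mybl1 (A-Myb) by 1.09. DNA replication genes, which act earlier in the cell cycle, had 10 of 29 called up and 2 called down, and a median of 0.44. With spike-in scaling 14 rose and 0 fell. The rises were 2 without either Wild Type_183 or Wild Type_189, 4 without Wild Type_181, 3 without Mutant_182, 5 without Mutant_187, 6 without Mutant_188 and 17 without Mutant_175. Of all genes, 11.5% to 11.8% rose without a wild type array, and 19.7% without Mutant_175. Leaving out Mutant_182, Mutant_187 or Mutant_188 alone, 13.5% to 15.8% of all genes rose. Rrm2, of ribonucleotide reductase, rose by 1.75, Uhrf1, of maintenance DNA methylation, by 2.70 and Ccne1 (cyclin E1) by 1.19, while the helicase subunit Cdc45 fell by 0.86 (-0.30, not called, with spike-in scaling). The dimmer Cdc45 probe gave -0.75 (adjusted p over all kept probes = 0.328). G1 cyclins, their kinases and CDK inhibitors had 5 of 12 called up and 3 called down, and a median of 0.28, with 6 and 0 calls with spike-in scaling, and 3 and 1 without Wild Type_189. The inhibitor genes Cdkn1a (p21), Cdkn2d and Cdkn2b rose by 2.33, 0.80 and 0.82, and Cdk6 by 1.21. The inhibitor genes Cdkn1c (p57) and Cdkn1b (p27), named here after their values were seen, fell by 0.83 (adjusted p = 0.0166) and 0.49 (adjusted p = 0.0285). Neither was called lower with spike-in scaling. Cdkn1a read 2213%, 1749%, 1175% and 1340% in Mutant_175, Mutant_182, Mutant_187 and Mutant_188, against 210%, 335% and 437% in wild type. Cdkn1a was highest in Mutant_175, where most members were lowest among the knockouts, and its dimmer probes gave 0.64 (adjusted p over all kept probes = 0.197) and 0.31 (0.588).

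**Figure D5:**
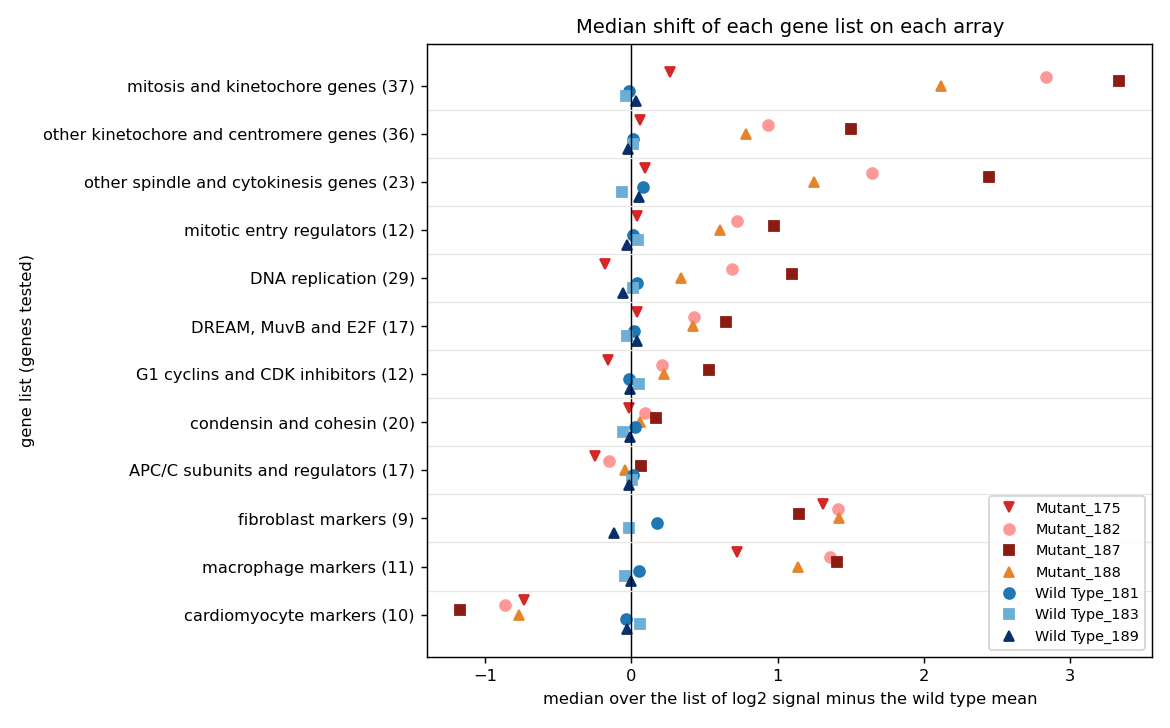
Median over each gene list of log2 signal minus the wild type mean, on each knockout array (red to orange) and wild type array (blue), with the number of genes tested. The mitosis and kinetochore genes have 0.27 in Mutant_175 and 2.12 to 3.34 across the remaining knockouts, and fibroblast markers have 1.14 to 1.42 in all 4.

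Markers of cell types that could supply these transcripts also differed between the groups. All 10 cardiomyocyte, 9 fibroblast, 11 macrophage and 9 endothelial markers were well above background on all 7 arrays. Of all genes tested, 16.3% were called higher and 25.8% lower. Of the fibroblast markers 8 rose and none fell (limma, 8 and 0 at an unadjusted p under 0.05), and their summed relative signal was 63467% in Mutant_175 and 81978% to 87527% across the remaining knockouts, against 30902% to 33954% in wild type. Mutant_175 had a median shift of 1.31 over them, beside 1.14 to 1.42 across the remaining knockouts. Of the macrophage markers 8 rose and 1 fell, with a summed signal of 6651% in Mutant_175 and 9433% to 11997% across the remaining knockouts, against 4875% to 4990% in wild type, and a median shift of 0.72 and 1.14 to 1.41. Of the endothelial markers 1 rose and 2 fell, with a summed signal of 10448% to 15011% in knockout and 11983% to 12571% in wild type. Cardiomyocyte markers fell in 8 of 10 and rose in none (limma, 0 and 9 at an unadjusted p under 0.05), with a summed signal of 261690% to 346774% in knockout and 554106% to 603753% in wild type. The count of cardiomyocyte markers that fell was 4 after quantile normalization, 5 after normexp with quantile normalization and 4 with spike-in scaling. Macrophage and neutrophil markers were lowest in Mutant_175 among the knockouts by summed signal and by median shift, as the mitotic genes were. Fibroblast markers were lowest there by summed signal and within the range of the other 3 by median shift. Lymphocyte and mural cell markers were lowest there by median shift, at 0.01 and 0.06, and highest by summed signal. Cardiomyocyte, endothelial and erythroid markers were highest there by median shift, and epicardial markers lay within the range of the others. The part of these cells in the change of the mitotic genes was not tested.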

How the data were processed

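Total RNA of 7 heart samples was labelled with Cy3 and hybridised to one-colour Agilent SurePrint G3 mouse arrays, per the labels' protocols and the series design. Per the file headers, the authors extracted spot intensity with Agilent Feature Extraction 10.7.3.1, and its processed signal is a linear intensity after background correction. The authors also deposited a value table that holds the same intensity, with 99.6% of its cells within 0.01 of the scanner value on the log2 scale and column medians of 65.5, 83.3, 80.9 and 61.1 in the knockout and 47.7, 45.9 and 50.8 in the wild type arrays, in ascending sample number. It was used as an alternative.

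Each array held 59305 spots other than controls, of which 82 to 146 were outliers and left out, 0 were saturated and 58.1% to 63.6% were well above background. Spots of a probe were averaged, and log2 intensity minus the array's 75th percentile was taken. This scaling removes any difference in total messenger RNA. A probe was kept if 3 or more arrays had it well above background. Genes other than the members were named by accession through a table of GRCm38.p6, which matched 32994 of 56605 probes, and by the file's name otherwise. A probe well above background on no wild type array has a lower bound only, its knockout mean against, on each wild type array, its own signal or the dimmest signal well above background, whichever is higher.

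Each gene was fitted on all 7 arrays without covariates with limma 3.58.1 in R 4.3.3, with Benjamini-Hochberg adjustment over 22976 genes and a threshold of 0.05. Probes were fitted likewise, over all kept probes. Promoters and figures used Python 3 with pandas and matplotlib 3.10.9. The fit was tested on simulated data drawn with the same spread in both groups. A wider spread in the knockout arrays was therefore not covered by it. No sample number occurs in both groups, so nothing was paired, and the headers name 1 slide and 1 scan. The members and gene lists were chosen with earlier results of these data known. Every member has a value in the text, called members and those with disagreeing probes (an opposite call, or over 1 apart in log2 fold change) have full values, and from each other list up to 4 genes with the smallest p are named. Alternatives were quantile normalization, a percentile over probes that every array detected, spike-in scaling over 7 probes, normexp (offset 50) with quantile normalization, the value table, no filter, a filter that requires every array, averaging a gene's probes, leaving out each array, and leaving out Mutant_175 and Mutant_187 together.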

Additional observations from a re-analysis of the deposited data

Results flagged for a closer look

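The log2 signals of the 37 members tested and of Smarca4 and Smarca2 on the 4 knockout arrays were examined for an array far from the others, by the gap to its nearest neighbour over the whole range. For 1 of these 39 genes, Ect2, the ratio was above Dixon's critical value for 4 arrays. In Ect2 the gap of Mutant_175 below the other knockouts took up 0.898 of the range. Chance alone marks about 1 in 20 such groups.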

How the results depend on the processing

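No member changed direction under any of the 16 alternatives, and Cenpa, Bub1b, Mad2l1, Birc5, Nusap1 and Anln were called higher under all of them. The number of members called higher, 23, was 7 to 36 when 1 array was left out. It was 36 without Mutant_175 (19.7% of all genes), 10 without Mutant_182 (13.5%), 16 without Mutant_187 (15.8%) and 13 without Mutant_188 (14.1%). It was 8 without Wild Type_181 (11.8% of all genes), 7 without Wild Type_183 (11.7%) and 8 without Wild Type_189 (11.5%). It was also 36 without Mutant_175 and Mutant_187 together, 35 with spike-in scaling (37.1% of all genes) and 14 with no filter on dim probes (8.85% of all genes). The 1 member called lower, Cenpf, became 0 when a gene's probes were averaged (limma, 0 at an unadjusted p under 0.05), since its second probe rose. The median over the members was 1.80 to 2.73 when 1 array was left out, 1.29 after normexp with quantile normalization and 2.65 with spike-in scaling. Spike-in scaling moved the median over all genes to 0.44, against -0.12, and gave 8535 genes higher and 1711 lower in place of 3749 and 5935, so that 83.3% in place of 38.7% of the calls were higher, beside 49.4% with a percentile over probes that every array detected. It also gave Smarca2 0.65 (adjusted p = 0.0293, limma). Of the named genes that fell outside the members, Anapc13, Cdc26, Cdc45, Cep55, Kif2a, Ncapd3 and Rad21 lost their call with spike-in scaling and Ensa turned to 0.0415 (adjusted p = 0.855). Cdkn1c and Cdkn1b also lost their call as lower, since spike-in scaling left 0 genes of their list called lower. No paired analysis was possible because the groups share no sample number. With 3 and 4 arrays, adjusted p-values near 0.05 depend on single arrays, and signals close to background, as in the wild type arrays for Bub1, Ttk, Kif4, Kif11 and Cdc25c, limit the fold changes to bounds.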

Other observations

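Other marker lists were described in the same way, beside 16.3% of all genes called higher and 25.8% called lower. Epicardial markers had 3 of 6 tested higher and none lower (limma, 3 and 0 at an unadjusted p under 0.05), with a median shift of 2.08 in Mutant_175, 0.82 in Mutant_182, 3.80 in Mutant_187 and 0.69 in Mutant_188. Lymphocyte markers had 2 of 7 higher and none lower (2 and 0 unadjusted), and Cd8a and Cd79a were not well above background on any array. Mural cell markers had 2 of 6 higher and 1 lower, and neutrophil markers 1 of 6 higher and 1 lower. Erythroid markers had 0 of 5 called in either direction (limma, 0 and 0 unadjusted), and their summed relative signal was 1236% in Mutant_175 and 210% to 414% across the remaining knockouts, against 310% to 343% in wild type. Most of the sum in Mutant_175 came from Alas2, at 979%. Slc4a1 and Ahsp were also highest there, while Epor lay below the wild type arrays and Klf1 within their range.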
